A study of Mus musculus with 9 samples.

Results

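Hippocampal transcripts of mice fed tryptophan were compared with those of mice given indole-3-propionic acid (IPA), a bacterial metabolite of tryptophan, with all animals on a high-fat diet. The comparison takes the 3 libraries labelled Trp against the 3 labelled IPA, which are 6 of the 9 libraries of the series. They were chosen by their labels and the column names of the count table, and no measured value entered the choice. The Trp mice ate the high-fat diet with tryptophan added at 0.5% by weight, and the IPA mice ate high-fat diet and received IPA in sterile saline by oral gavage every day at 100 mg per kg body weight, each for 12 weeks. The remaining 3 libraries (HFD) came from mice on the high-fat diet alone for 12 weeks, and their values are printed beside the others as levels only. Each group had 3 mice, and no library came from mice on ordinary chow. Strain, age and sex are not given in the labels, and neither is whether the Trp and HFD mice had a saline gavage. IPA lacks the alpha-amino group of tryptophan, but the compounds were given at different doses and by different routes, so the difference below is between these regimens and not between compounds at matched dose. The table's column codes are HOB for Trp, HEB for IPA and WTB for HFD. The labels pair these codes with the samples and do not explain them, so whether the groups differ in anything besides treatment is not settled.

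Tryptophan is the dietary source of several families of signalling molecules. Host cells degrade most of it along the kynurenine pathway, which Ido1 and Tdo2 open, and convert a small share to serotonin through tryptophan hydroxylase. Gut bacteria turn another share into indoles, and IPA is among those that reach the circulation and the brain. Indoles are known as ligands of the aryl hydrocarbon receptor (AHR) and the pregnane X receptor (PXR, gene Nr1i2), and IPA is also known as a scavenger of hydroxyl radicals. A tryptophan diet feeds all of these routes, whereas IPA given directly enters only after the bacterial step. The study's stated subject is diet-induced cognitive decline, barrier disruption and FFAR3, a receptor for short-chain fatty acids.

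Total counts were 40621084 to 50938746 per library, so 3 counts, the limit that a count of 0 allows, equalled 0.0584 to 0.0757 CPM (counts scaled to library depth by TMM). Log2 CPM correlated across genes with r of 0.982 to 0.988 within the Trp and IPA groups and 0.983 to 0.989 between them, and genes are not independent replicates. Tissue outside the hippocampus varied between libraries of the same group. The summed CPM of 27 choroid plexus markers was 2175, 965 and 271 in Trp 1 to 3 and 679.6, 1809.9 and 1379.6 in IPA 1 to 3. Ttr, the thyroid hormone carrier transthyretin and the top member of that list by level, stood at 1286, 563 and 25.7 CPM in Trp 1 to 3. The 24 striatal markers summed to 1827 to 5480.0 CPM in HFD, 5344 to 6653 in IPA and 3656 to 5234 in Trp, so no library was free of transcripts on this list. The list includes genes of other neurons too, such as Arpp21, and the part from striatal tissue was not tested. Dentate granule cell and CA field markers, the defining neurons of the hippocampus, were present in each library at 698 to 787 and 1620.3 to 1818 summed CPM in Trp and 749.9 to 799.8 and 1595 to 1699 in IPA. Xist gave 4365 to 7267 counts, and Ddx3y, Eif2s3y, Kdm5d and Uty gave 0, in all 9 libraries.

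**Figure D1:**
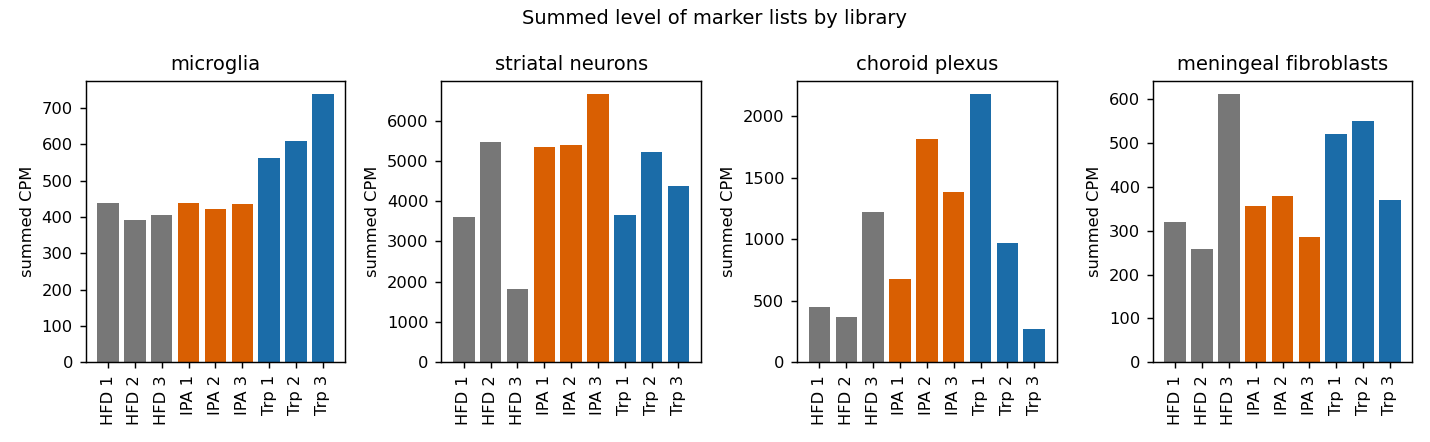
Summed CPM of the microglia, striatal neuron, choroid plexus and meningeal fibroblast marker lists (y axis, linear from 0) in each of the 9 libraries (x axis, 1 bar per library, HFD grey, IPA orange, Trp blue). The microglia bars of Trp (562 to 737) lie above every IPA and HFD bar, while the choroid plexus bars spread within the Trp group from 271 to 2175.

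The question was which transcripts differ between the tryptophan and the IPA regimen. With edgeR's quasi-likelihood test on 6 libraries, 0 of 18148 genes tested passed a Benjamini-Hochberg adjusted p under 0.05 (0% called), and the smallest adjusted p was 0.0591, for Ctss. At an unadjusted p under 0.05 there were 1151 genes (6.34%), of which 541 were higher in Trp (2.98%) and 610 lower (3.36%). The 10 genes with adjusted p under 0.1 (0.0551%) lay on 8 chromosomes, and 7 were higher and 3 lower in Trp. Among them were Ctss, Zfp973, Fcgr3, Gm10774, Selplg and C1qb, higher in Trp, and Dach1, Dgkb and Gper1, lower in Trp. DESeq2's Wald test on the same counts called 66 genes, 37 higher and 29 lower, and limma on log2(FPKM + 0.5) called 1, Gm10774. The count of 0 by edgeR moved to 18 without Trp 1, 2 without Trp 2, 4 without Trp 3 and 1 without IPA 3, and stayed at 0 without IPA 1 or IPA 2. Below, a gene is said to have passed only by edgeR on these 6 libraries unless another analysis is named. The Trp and IPA libraries did not overlap for 2018 genes (11.1%). The 8 leading genes in each direction were named only from genes without overlap, so their lack of overlap is no further evidence. The data bound most differences closely. The 95% interval of the Trp to IPA ratio lay within 2-fold in either direction for 14831 genes (81.7%) and within 1.5-fold for 11715 genes (64.6%). Of 191 genes with an absolute log2 fold change of at least 1, 33 had a mean FPKM (the authors' length- and depth-scaled level) of at least 1 in the higher group. In simulated data of this size with 200 changed genes, the test found 34.3% of the genes changed 1.5-fold, 70.1% of those changed 2-fold and 90.9% of those changed 4-fold. The Benjamini-Hochberg cutoff is stricter where fewer genes differ, so these rates do not give the sensitivity of the test on the measured data.

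**Figure D2:**
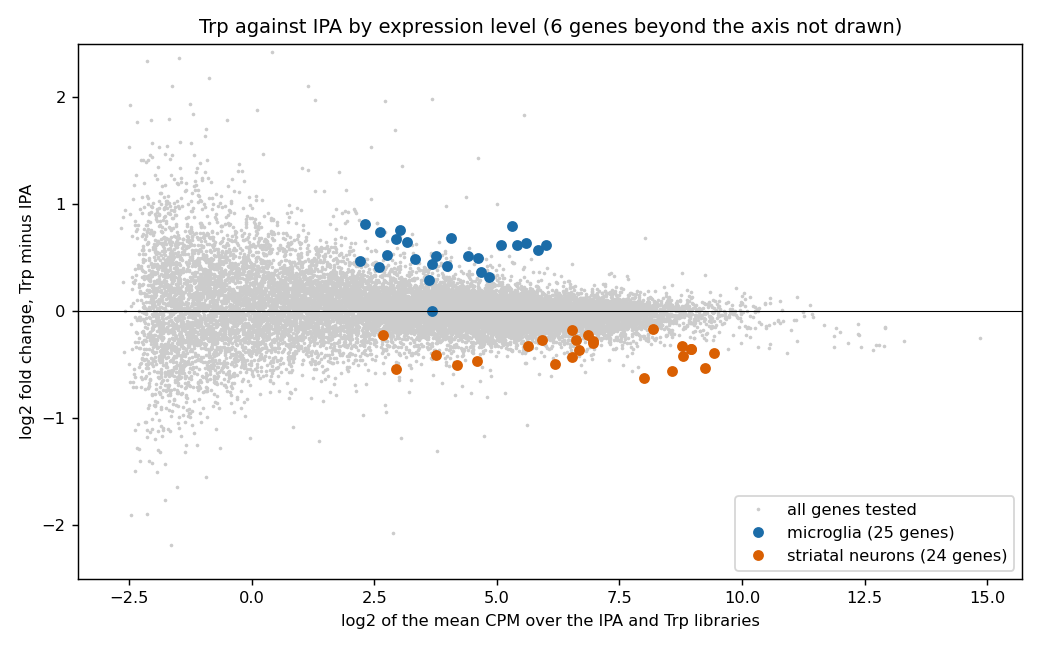
Log2 fold change of Trp minus IPA (y axis) against log2 of the mean CPM over the 6 libraries (x axis) for all 18148 genes tested (grey), with the 25 microglia markers (blue) and the 24 striatal markers (orange). The microglia points lie between 0.01 and 0.82 and the striatal points between -0.62 and -0.17, and 6 genes beyond 2.5 in either direction are not drawn.

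Genes of microglia, the resident macrophages of the brain, made up 4 of the 10 genes of smallest adjusted p, among them Ctss, Selplg and C1qb. Ctss, the lysosomal protease cathepsin S, was measured at 29.01, 26.9 and 31.5 CPM in IPA 1 to 3 and 45.9, 48.4 and 57.5 CPM in Trp 1 to 3, beside 21.5 to 27.04 CPM in HFD. Every Trp library lay above every IPA and HFD library, the mean was 1.73-fold that of IPA (log2 fold change 0.79, SE 0.11, edgeR adjusted p = 0.0591), and the adjusted p ran from 1.05e-07 to 0.267 over 16 alternative analyses, with the highest, 0.267, without IPA 1 and the lowest by DESeq2. Selplg, the selectin ligand PSGL-1, was at 12.98, 13.7 and 11.7 CPM in IPA 1 to 3 and 19.3, 19.5 and 22.8 CPM in Trp 1 to 3, and the Trp libraries lay above the IPA and the HFD libraries (9.61 to 12.2 CPM). Its difference was 1.61-fold (log2 fold change 0.68, SE 0.11, edgeR adjusted p = 0.0765). In bulk tissue, fewer cells of a type and less RNA per cell cannot be told apart.

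The 3 chains of complement C1q, the protein that opens the classical complement pathway and tags synapses for removal, were higher in Trp to nearly the same degree. C1qb was measured at 39.2, 40.01 and 34.2 CPM in IPA 1 to 3 and 51.6, 58.1 and 67.3 CPM in Trp 1 to 3, with 31.7 to 38.2 CPM in HFD (log2 fold change 0.64, SE 0.11, edgeR adjusted p = 0.0765). C1qa was at 32.5, 32.5 and 35.4 CPM in IPA 1 to 3 and 44.7, 48.3 and 61.95 CPM in Trp 1 to 3 (log2 fold change 0.63, SE 0.12, edgeR adjusted p = 0.148). C1qc was at 27.999, 26.7 and 25.6 CPM in IPA 1 to 3 and 35.9, 38.6 and 49.2 CPM in Trp 1 to 3 (log2 fold change 0.62, SE 0.12, edgeR adjusted p = 0.148). In each of the chains Trp 3 was the highest library, the IPA libraries lay close to the HFD range (30.1 to 32.2 CPM for C1qa and 26.7 to 28.6 CPM for C1qc), and no Trp library overlapped an IPA library.

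Of the 25 microglia markers 0 passed by edgeR, 25 were higher in Trp, 24 were higher at an unadjusted p under 0.05 against 2.98% of all genes, and 23 were higher without overlap against 5.5% of all genes. With other analyses 11 of them passed by DESeq2, 9 without Trp 1, 7 without the filter on low counts, 4 among genes of mean FPKM of at least 5, 2 with the replicate block, 1 without Trp 3 and 1 with upper quartile scaling, all higher in Trp. Over all genes, 66 of 18148, 18 of 18518, 14 of 30001, 6 of 8413, 6 of 18148, 4 of 18467 and 1 of 18148 passed, in that order. The median log2 fold change of the microglia markers was 0.53, beside 0.0048 for all genes tested. It ran from 0.44 to 0.65 over 16 alternatives and kept its sign in each. The summed level was 438, 421 and 436 CPM in IPA 1 to 3, 562, 609.5 and 737 CPM in Trp 1 to 3 and 391 to 439 CPM in HFD. The IPA libraries lay within the HFD range and the Trp libraries lay above both. Aif1, which encodes the microglial stain antigen IBA1, was at 3.74, 4.32 and 3.504 CPM in IPA 1 to 3 and 4.67, 4.95 and 6.43 CPM in Trp 1 to 3 (log2 fold change 0.47, SE 0.18, edgeR adjusted p = 0.674). Trem2, the lipid-sensing receptor of microglia, was at 11.4, 11.002 and 10.4 CPM in IPA 1 to 3 and 13.3, 13.9 and 17.3 CPM in Trp 1 to 3 (log2 fold change 0.44, SE 0.13, edgeR adjusted p = 0.504). No Trp library overlapped an IPA library for these. Named after their values were seen, Csf1r, the receptor for colony-stimulating factor 1, had a log2 fold change, Trp minus IPA, of 0.58 (95% interval 0.34 to 0.81), Tmem119, a surface protein of resident microglia, one of 0.50 (0.26 to 0.73), and P2ry12, the nucleotide receptor of resting microglia, one of 0.43 (0.09 to 0.76). The members that overlapped between groups were Laptm5, a lysosomal membrane protein (log2 fold change 0.37), and Sall1, a transcription factor of microglial identity. Sall1 was 12.8 ± 0.608 CPM in IPA and 12.9 ± 1.21 CPM in Trp (SD, n = 3), a log2 fold change of 0.01 (-0.24 to 0.26).

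**Figure D3:**
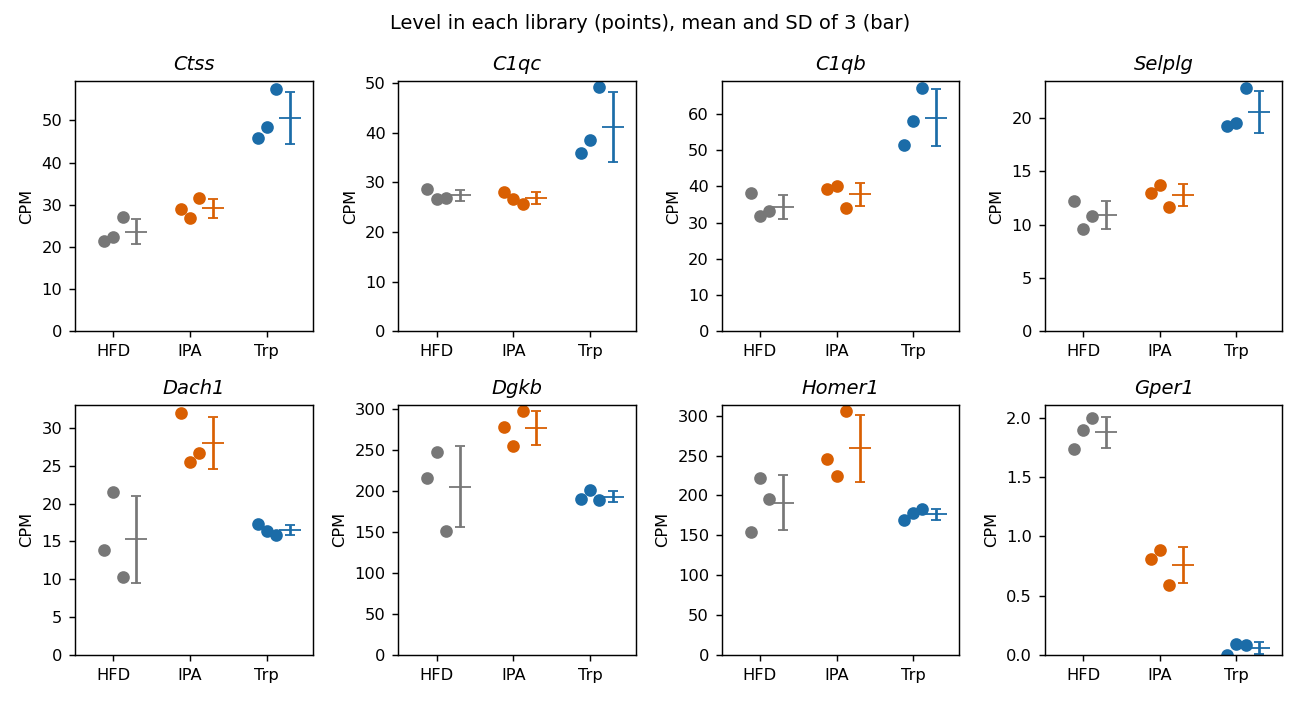
CPM (y axis, linear from 0) of 8 genes in the HFD, IPA and Trp libraries (points, 1 per mouse), with the mean and SD of 3 libraries as a bar. Ctss, C1qb, C1qc and Selplg were higher in each Trp library than in each IPA library, whereas Dach1, Dgkb, Homer1 and Gper1 were lower.

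Promoters were read for the 16 leading genes, 8 in each direction, of which 12 had an entry in the RefSeq table of build GRCm38.p6, with 250 bases before and 50 after the start. Shown are the promoters of the 4 higher genes of microglia and macrophages that matched, Ctss (chr3:95526536-95526835 on the plus strand), C1qb (chr4:136886151-136886450 on the minus strand), C1qc (chr4:136892865-136893164 on the minus strand) and Fcgr3 (chr1:171059354-171059653 on the minus strand, the first of 2 entries). Each is written 5′ to 3′ along the gene, and capitals mark GAGGAA or its reverse complement TTCCTC, a core bound by the macrophage factor PU.1 of the ETS family.
Ctss: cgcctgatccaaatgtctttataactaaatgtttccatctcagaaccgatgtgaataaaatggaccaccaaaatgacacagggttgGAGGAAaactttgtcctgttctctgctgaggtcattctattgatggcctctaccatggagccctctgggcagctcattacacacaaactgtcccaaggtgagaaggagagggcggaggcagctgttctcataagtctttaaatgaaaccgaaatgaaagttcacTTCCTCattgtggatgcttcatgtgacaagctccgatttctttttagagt
C1qb: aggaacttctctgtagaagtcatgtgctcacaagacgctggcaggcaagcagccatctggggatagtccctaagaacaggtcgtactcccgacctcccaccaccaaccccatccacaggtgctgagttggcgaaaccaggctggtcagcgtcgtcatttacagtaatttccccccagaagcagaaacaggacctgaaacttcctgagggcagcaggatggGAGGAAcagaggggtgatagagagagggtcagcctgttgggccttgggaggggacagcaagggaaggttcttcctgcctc
C1qc: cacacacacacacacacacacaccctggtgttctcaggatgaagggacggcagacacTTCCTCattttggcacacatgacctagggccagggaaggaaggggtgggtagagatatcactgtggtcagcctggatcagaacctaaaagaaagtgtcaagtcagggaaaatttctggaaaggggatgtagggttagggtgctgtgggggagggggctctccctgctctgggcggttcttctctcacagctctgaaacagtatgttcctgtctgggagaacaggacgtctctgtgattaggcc
Fcgr3: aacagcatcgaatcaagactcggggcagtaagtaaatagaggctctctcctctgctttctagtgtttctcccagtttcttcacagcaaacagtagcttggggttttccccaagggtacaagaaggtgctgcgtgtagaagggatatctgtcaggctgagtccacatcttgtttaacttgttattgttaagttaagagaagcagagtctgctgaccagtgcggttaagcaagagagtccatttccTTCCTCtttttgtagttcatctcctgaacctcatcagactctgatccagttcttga

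GAGGAA, sought on both strands and chosen as a motif after the ranking was known, occurred in 4 of 5 promoters of genes higher in Trp and in 2 of 7 of genes lower in Trp, and in 28.3% of 32851 promoters of this length. The core of the aryl hydrocarbon response element, GCGTG, occurred in 1 of 5 and 4 of 7, beside 32.4% of all promoters. The AP-1 site TGANTCA occurred in 0 of 5 and 0 of 7, beside 7.81% of all, and 0 matches of different motifs overlapped. These are matches of letters and not measured sites.

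Receptors and cytokines of inflammatory cells were weakly expressed. Fcgr3, a low-affinity receptor for immunoglobulin G on microglia and other macrophages, was measured at 11.3, 10.7 and 10.96 CPM in IPA 1 to 3 and 16.5, 17.4 and 17.8 CPM in Trp 1 to 3, with 8.75 to 9.67 CPM in HFD (log2 fold change 0.65, SE 0.11, edgeR adjusted p = 0.0765). The spread within each group was small and the groups did not overlap, the latter being required by the naming rule. Il1b, the cytokine interleukin-1 beta, had 5 to 7 counts per IPA library, 14 to 30 per Trp library and 12 to 19 per HFD library. The ratio of its summed counts was 2.99 (95% counting interval 1.77 to 5.27), its exons overlap those of Il1bos, and the fitted log2 fold change was 1.54 (SE 0.47, edgeR adjusted p = 0.549). Tnf, which encodes tumour necrosis factor, had 0 to 3 counts in every library and was not tested. Of 18 cytokine and inflammasome genes tested out of 30, 0 passed and 13 were higher, with a median of 0.16, 0.11 without IPA 3. Nlrp3, an inflammasome sensor, had a log2 fold change, Trp minus IPA, of 0.98 (95% interval 0.01 to 1.94), and Casp1, the inflammasome protease, one of -0.55 (-1.14 to 0.05).

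Markers of blood cells were read beside these genes. Lyz2, lysozyme of macrophages, monocytes and neutrophils, was at 5.63, 3.71 and 3.39 CPM in IPA 1 to 3 and 7.36, 6.77 and 8.44 CPM in Trp 1 to 3 (log2 fold change 0.83, SE 0.19, edgeR adjusted p = 0.323), and Cd74, the MHC class II invariant chain, with a log2 fold change, Trp minus IPA, of 0.85 (95% interval 0.13 to 1.58). Of the 20 blood cell markers, 7 were tested, 4 were higher and 3 lower in Trp, and the list summed to 252 to 403 CPM in IPA and 244 to 392 in Trp. The neutrophil genes Camp, Ltf and Retnlg were at 0 counts in all 6 libraries, S100a8 and S100a9 reached at most 2 and 6 counts, and the lymphocyte genes Cd3e and Cd79a at most 4 and 5. Hba-a1, alpha globin of red cells, lay at 55.4 to 92.3 CPM in Trp, overlapping the range of 56.5 to 85.7 CPM in IPA. The part of blood cells in the Fcgr3, Lyz2 and Cd74 differences was not tested.

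Among the leading genes lower in Trp were signalling genes of neurons. Dach1, a transcriptional cofactor of the dachshund family, was measured at 31.96, 25.5 and 26.6 CPM in IPA 1 to 3 and 17.3, 16.4 and 15.9 CPM in Trp 1 to 3, beside 10.4 to 21.6 CPM in HFD. The IPA libraries were the high ones and the Trp libraries lay within the HFD range. The IPA mean was 1.696-fold that of Trp (log2 fold change -0.76, SE 0.11, edgeR adjusted p = 0.06402). Dgkb, diacylglycerol kinase beta, which removes the lipid messenger diacylglycerol at synapses, was at 278, 255 and 297 CPM in IPA 1 to 3 and 190.2, 201 and 188 CPM in Trp 1 to 3, with 151 to 248 CPM in HFD (log2 fold change -0.52, SE 0.08, edgeR adjusted p = 0.0765). Its 3 Trp libraries lay close together and below every IPA library. Acvr1c, the activin and nodal receptor ALK7, was at 35.2, 33.1 and 34.8 CPM in IPA 1 to 3 and 26.2, 22.2 and 21.99 CPM in Trp 1 to 3 (log2 fold change -0.55, SE 0.10, edgeR adjusted p = 0.124), and its exons overlap those of Gm13544. Pde7b, a phosphodiesterase that degrades cyclic AMP, was at 80.2, 74.8 and 95.6 CPM in IPA 1 to 3 and 54.6, 63.95 and 46.5 CPM in Trp 1 to 3 (log2 fold change -0.60, SE 0.12, edgeR adjusted p = 0.274). The Trp libraries of these genes lay below all IPA libraries, which the naming rule required. Osbpl8, a lipid transfer protein of the endoplasmic reticulum, was at 130.3, 104 and 133 CPM in IPA 1 to 3 and 90.3, 90.8 and 79.02 CPM in Trp 1 to 3 (log2 fold change -0.50, SE 0.10, edgeR adjusted p = 0.245). Cdhr1, a cadherin-related protein best known from photoreceptors, was at 7.37, 6.16 and 5.76 CPM in IPA 1 to 3 and 2.296, 4.04 and 3.53 CPM in Trp 1 to 3 and at 22.5, 9.14 and 4.45 CPM in HFD 1 to 3 (log2 fold change -0.97, SE 0.21, edgeR adjusted p = 0.266).

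Markers of the striatum were lower with them. Of 24 striatal markers 0 passed by edgeR and 2 by DESeq2 (66 of all 18148 genes). In Trp 24 were lower, 13 were lower at an unadjusted p under 0.05 against 3.36% of all genes, and 9 were lower without overlap against 5.62%. Their median log2 fold change was -0.36, from -0.49 to -0.25 over 16 alternatives. The count at an unadjusted p under 0.05 was 0 of 24 when all 9 libraries entered the fit, 4 without IPA 3, 7 without Trp 1, 6 without Trp 3 and 5 by limma. For all genes, in either direction, it was 840 of 18690, 852 of 18575, 1807 of 18518, 927 of 18467 and 1104 of 13310 (pseudocount 0.5), in that order. Arpp21, a cyclic AMP-regulated phosphoprotein of striatal and other neurons, was at 719, 623 and 804 CPM in IPA 1 to 3 and 424, 577 and 487 CPM in Trp 1 to 3 (log2 fold change -0.53, SE 0.12, edgeR adjusted p = 0.358). The summed level was 5344, 5387 and 6653 CPM in IPA 1 to 3 and 3656, 5234 and 4377 CPM in Trp 1 to 3, and none of the 24 was at 0 in any library. Dgkb and Pde7b are known to be expressed in striatal neurons too, and the part of striatal tissue in their differences was not tested. Of 17 cortical neuron markers, 0 passed by edgeR and 1 by DESeq2 (66 of all 18148 genes). Of the 17, 13 were lower, with a median of -0.18, most so for Bcl11b, a transcription factor of deep-layer cortical and striatal neurons (log2 fold change -0.42, 95% interval -0.61 to -0.22).

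Immediate early genes, which neurons transcribe within minutes of activity, were lower in Trp in 28 of 38 tested. By edgeR 0 passed, while 5 passed with DESeq2 (66 of all 18148 genes) and 1 without the filter on low counts (14 of 30001). At an unadjusted p under 0.05, 10 were lower (beside 3.36% of all genes) and 1 higher (2.98%), and 7 were lower without overlap (5.62%). The count of 10 was 6 without IPA 2, 6 in the fit of all 9 libraries and 5 by limma. For all genes, in either direction, it was 1293 of 18618, 840 of 18690 and 1104 of 13310 (pseudocount 0.5), in that order. The list had a median of -0.12 (-0.22 to -0.04 over 16 alternatives, the latter with limma, and -0.22 without IPA 1 and -0.07 without IPA 2). Egr1, an activity-induced zinc finger transcription factor, was at 162, 191 and 193 CPM in IPA 1 to 3 and 129, 137 and 132 CPM in Trp 1 to 3, and at 182 to 298 CPM in HFD. The Trp libraries were tight and lay below the IPA libraries (log2 fold change -0.46, SE 0.09, edgeR adjusted p = 0.159). Homer1, whose short form remodels the glutamate receptor scaffold, was at 246, 225 and 306 CPM in IPA 1 to 3 and 169, 177 and 183 CPM in Trp 1 to 3 and 154 to 222 CPM in HFD (log2 fold change -0.56, SE 0.11, edgeR adjusted p = 0.165). Egr3 had a log2 fold change, Trp minus IPA, of -0.45 (95% interval -0.70 to -0.20) and Fosl2, an AP-1 subunit, one of -0.46 (-0.69 to -0.23). Fos, the classical activity marker, was at 8.18, 12.4 and 11.2 CPM in IPA 1 to 3 and 8.62, 9.74 and 10.5 CPM in Trp 1 to 3, with overlap (log2 fold change -0.14, SE 0.16, edgeR adjusted p = 0.923). Npas4, a calcium-dependent activity factor and the 1 member higher at an unadjusted p under 0.05, was named after its values were seen. It was at 1.64, 3.49 and 3.55 CPM in IPA 1 to 3 and 6.305, 5.096 and 5.502 CPM in Trp 1 to 3, with 4.04 to 28.7 CPM in HFD (log2 fold change 0.96, SE 0.25, edgeR adjusted p = 0.427). Bdnf, the brain-derived neurotrophic factor, overlapped between groups at 24.8 ± 2.404 CPM in IPA and 23.3 ± 3.86 CPM in Trp (SD, n = 3), a log2 fold change of -0.09 (-0.36 to 0.18).

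Genes induced by glucocorticoids, the adrenal stress hormones that also drive lipid and metal handling, were higher in Trp in 21 of 27 tested. By edgeR 0 passed, while 3 passed with DESeq2 (66 of all 18148 genes), 1 with the replicate block (6 of 18148) and 1 without Trp 3 (4 of 18467). At an unadjusted p under 0.05, 6 were higher (13 without Trp 3), beside 2.98% of all genes, and 4 were higher without overlap, beside 5.5%. Without Trp 3, 927 of all 18467 genes reached that p in either direction. The median was 0.20 (0.09 to 0.31 over 16 alternatives, the former without IPA 3). Mt2, a zinc-binding metallothionein, was at 84.8, 79.9 and 70.4 CPM in IPA 1 to 3 and 114, 109 and 97.2 CPM in Trp 1 to 3, with 54.8 to 84.5 CPM in HFD (log2 fold change 0.45, SE 0.09, edgeR adjusted p = 0.245). Mt1 was at 146, 149 and 128 CPM in IPA 1 to 3 and 187, 183 and 173 CPM in Trp 1 to 3 (log2 fold change 0.36, SE 0.08, edgeR adjusted p = 0.323). Neither metallothionein overlapped between the groups. Sult1a1, which sulfates phenols and shares exonic bases with Sgf29, was at 11.1, 11.5 and 8.84 CPM in IPA 1 to 3 and 22.5, 25.6 and 14.1 CPM in Trp 1 to 3, with 4.93 to 8.23 CPM in HFD (log2 fold change 0.98, SE 0.21, edgeR adjusted p = 0.387). Trp 3 was the lowest Trp library for it. Hif3a, an inhibitory hypoxia-inducible factor, was at 5.83, 6.34 and 5.29 CPM in IPA 1 to 3 and 8.66, 9.62 and 5.28 CPM in Trp 1 to 3, with 1.74 to 3.09 CPM in HFD (log2 fold change 0.43, SE 0.20, edgeR adjusted p = 0.791).

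Genes of lipid droplets and triglyceride breakdown varied within the Trp group as well. Plin4, a lipid droplet coat protein whose exons overlap those of Hdgfl2, was at 27.1, 22.4 and 14.4 CPM in IPA 1 to 3 and 54.7, 55.5 and 17.98 CPM in Trp 1 to 3, whereas HFD stood at 0.729 to 2.64 CPM. Trp 1 and Trp 2 exceeded every IPA library and Trp 3 did not, so the difference from IPA was within its error (log2 fold change 1.00, SE 0.56, edgeR adjusted p = 0.858). Its 95% interval was -0.51 to 2.51. HFD libraries were the lowest for it. Pnpla2, adipose triglyceride lipase, was at 23.1, 24.1 and 21.3 CPM in IPA 1 to 3 and 33.3, 34.2 and 28.7 CPM in Trp 1 to 3 (log2 fold change 0.49, SE 0.10, edgeR adjusted p = 0.245). Angptl4, a secreted inhibitor of lipoprotein lipase, was at 3.46, 2.82 and 1.93 CPM in IPA 1 to 3 and 5.62, 5.46 and 3.69 CPM in Trp 1 to 3 (log2 fold change 0.85, SE 0.24, edgeR adjusted p = 0.476), and Lpl, lipoprotein lipase itself, was lower in each Trp library at 47.97, 39.3 and 38.9 CPM in IPA 1 to 3 and 33.2, 33.9 and 32.1 CPM in Trp 1 to 3 (log2 fold change -0.35, SE 0.10, edgeR adjusted p = 0.498). Over the 24 genes of this list tested, 0 passed by edgeR and 1 by DESeq2 (66 of all 18148 genes), 16 were higher, and the median of 0.06 was 0.0082 without IPA 3.

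Enzymes that use tryptophan were little expressed in this tissue. Ido1, indoleamine dioxygenase of the kynurenine pathway, was lower in Trp at 9.44, 7.88 and 9.93 CPM in IPA 1 to 3 and 6.34, 6.15 and 6.31 CPM in Trp 1 to 3 (log2 fold change -0.54, SE 0.14, edgeR adjusted p = 0.394). It is a transcript of striatal neurons as well and stands on the striatal list, which was lower in Trp, and the part of striatal tissue in the difference was not tested. Tdo2, the other entry enzyme, was at 1.07 ± 0.289 CPM in IPA and 1.05 ± 0.693 CPM in Trp (SD, n = 3) and overlapped, with an interval of -0.95 to 0.91. Tph2, tryptophan hydroxylase of serotonin neurons, was at 1.34, 0.933 and 1.34 CPM in IPA 1 to 3 and 2.28, 3.397 and 1.23 CPM in Trp 1 to 3, where Trp 3 overlapped the IPA libraries (log2 fold change 0.93, SE 0.34, edgeR adjusted p = 0.648). Tph1, the form of peripheral tissue and pineal, was at 0.221 to 0.252 CPM in IPA and 0.322 to 0.5500000 CPM in Trp (log2 fold change 0.90, 95% interval -0.03 to 1.84), and Qprt, which closes the kynurenine pathway to NAD, was at 0.07100000 to 0.295 CPM in IPA and 0.322 to 0.742 CPM in Trp (log2 fold change 1.24, 95% interval 0.04 to 2.43). Kmo and Kynu, enzymes between these steps, had 3 to 15 and 0 to 11 counts in the 6 libraries and were not tested. Over 17 of 25 listed enzymes and transporters tested, 0 passed and 13 were higher, with a median of 0.13.

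Serotonin receptors were divided in direction over the list, while those at an unadjusted edgeR p under 0.05 were lower in Trp. Of 13 tested out of 16, 0 passed, 6 were higher and 7 lower. At that p 0 were higher and 3 lower, beside 2.98% and 3.36% of all genes, and 1 was lower without overlap (5.62%). In the fit of all 9 libraries 1 was lower at that p (840 of 18690 genes in either direction). The median of -0.12 turned positive in 4 of 16 alternatives, namely limma with each of 3 pseudocounts and the fit without IPA 2. With limma the median of all genes was 0.074 to 0.085, above that of this list. Htr2c, a receptor of choroid plexus and neurons, was at 62.7, 51.2 and 61.7 CPM in IPA 1 to 3 and 50.1, 47.2 and 40.9 CPM in Trp 1 to 3 (log2 fold change -0.35, SE 0.10, edgeR adjusted p = 0.544). Htr1b, a receptor on axon terminals, including those of striatal neurons, had a log2 fold change, Trp minus IPA, of -0.38 (95% interval -0.64 to -0.11), and the related Htr1d one of -0.75 (-1.27 to -0.23). Htr1a, an inhibitory receptor of hippocampal pyramidal cells, was at 15.3, 13.6 and 12.7 CPM in IPA 1 to 3 and 19.4, 15.9 and 14.5 CPM in Trp 1 to 3 (log2 fold change 0.26, SE 0.13, edgeR adjusted p = 0.796). The serotonin transporter Slc6a4 had 0 to 8 counts in IPA and 7 to 44 in Trp and was not tested.

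The receptors of indoles and bacterial metabolites were expressed at low levels, and several had too few counts to test. Ahr was at 7.902, 6.73 and 8.35 CPM in IPA 1 to 3 and 7.24, 7.01 and 8.18 CPM in Trp 1 to 3, a log2 fold change of -0.04 whose 95% interval, -0.34 to 0.27, excludes a 1.5-fold difference in either direction. Nr1i2, which encodes PXR, had 0 counts in all 9 libraries. Ffar3 had 3 to 12 counts per library in IPA, 0 to 6 in Trp and 0 to 19 in HFD, and Ffar2 had 0 to 4 in the 9 libraries. Neither was tested, and a difference in these receptors was not detectable at this depth. Arnt, the dimer partner of AHR, had a log2 fold change, Trp minus IPA, of 0.18 (95% interval -0.05 to 0.41) without overlap. Gpr84, a receptor for medium-chain fatty acids on macrophages, had a log2 fold change, Trp minus IPA, of 0.79 (95% interval -0.02 to 1.59), Gpr35, a receptor for kynurenic acid, one of 0.95 (-0.09 to 2.00), and Hcar1, the lactate receptor, one of 1.02 (-0.18 to 2.22), each below 1 CPM. Of 11 metabolite receptor genes tested out of 22, 0 passed and 7 were higher (median 0.09, -0.03 with genes of mean FPKM of at least 5 alone).

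Targets that AHR or PXR induce in other tissues gave no call either. Cyp1a1, the classical AHR target, had 6 to 9 counts in IPA, 0 to 6 in Trp and 4 to 11 in HFD and was not tested. Cyp1b1 was at 1.64, 2.09 and 1.01 CPM in IPA 1 to 3 and 2.18, 2.87 and 1.79 CPM in Trp 1 to 3 (log2 fold change 0.53, SE 0.29, edgeR adjusted p = 0.814). Tiparp, an ADP-ribose transferase that feeds back on AHR, was at 28.4, 23.6 and 23.2 CPM in IPA 1 to 3 and 23.8, 22.1 and 19.2 CPM in Trp 1 to 3 (log2 fold change -0.21, SE 0.11, edgeR adjusted p = 0.816). Both overlapped between the groups. Ahrr, the AHR repressor, had a log2 fold change, Trp minus IPA, of -0.24 (95% interval -1.20 to 0.71), and Nqo1, a quinone reductase, one of -0.02 (-0.41 to 0.37). Abcb1a, the efflux pump P-glycoprotein of the barrier, was at 15.6, 18.6 and 17.5 CPM in IPA 1 to 3 and 19.5, 21.2 and 22.5 CPM in Trp 1 to 3 (log2 fold change 0.29, SE 0.11, edgeR adjusted p = 0.664), and Gstm1, a glutathione transferase, with a log2 fold change, Trp minus IPA, of 0.21 (95% interval 0.01 to 0.40). Over 14 of 22 targets tested, 0 passed and 9 were higher, with a median of 0.15. Hmox1, haem oxygenase, had a log2 fold change, Trp minus IPA, of 0.21 (95% interval -0.17 to 0.58), and the 20 Nrf2 antioxidant genes, all tested, had 0 passing, 12 higher and a median of 0.01, which was negative without IPA 3 and without Trp 1.

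**Figure D4:**
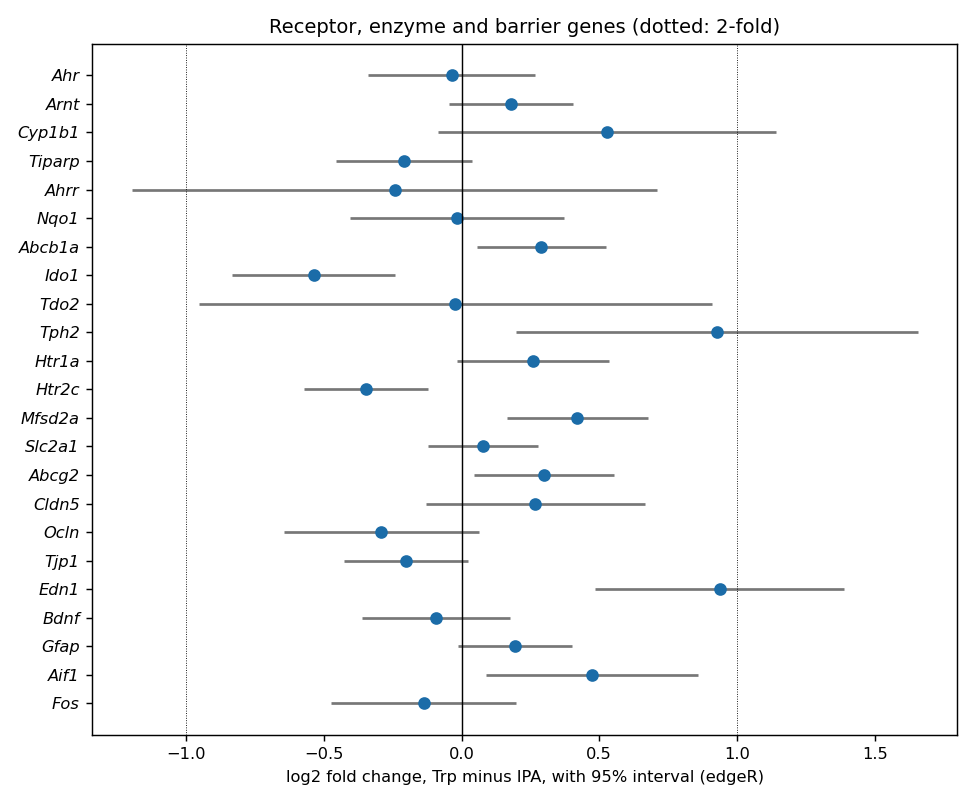
Log2 fold change of Trp minus IPA (x axis) with its 95% interval from edgeR for 23 genes of indole receptors, their targets, tryptophan and serotonin metabolism, the blood-brain barrier and cell markers (y axis), with dotted lines at a 2-fold difference. Ahr, Nqo1, Slc2a1 and Bdnf are centred near 0 within 2-fold, while Ahrr and Tdo2 have wide intervals and Edn1 and Tph2 lie to the right.

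At the blood-brain barrier, transporters and junction genes were divided in direction, while those at an unadjusted edgeR p under 0.05 were higher in Trp. Mfsd2a, which carries lysolipids into the brain and limits transcytosis in endothelium, was at 25.05, 24.6 and 22.1 CPM in IPA 1 to 3 and 29.8, 38.1 and 28.2 CPM in Trp 1 to 3, with 14.3 to 17.8 CPM in HFD (log2 fold change 0.42, SE 0.12, edgeR adjusted p = 0.489). Abcg2, an efflux pump, was at 13.5, 13.3 and 16.3 CPM in IPA 1 to 3 and 16.7, 17.1 and 19.2 CPM in Trp 1 to 3 (log2 fold change 0.30, SE 0.12, edgeR adjusted p = 0.68999). Neither overlapped between the groups. Slc2a1, the glucose transporter GLUT1, was at 99.1 ± 4.45 CPM in IPA and 105 ± 11.6 CPM in Trp (SD, n = 3) with an interval of -0.12 to 0.28, inside a 1.5-fold difference. Of 21 transporters tested out of 22, 0 passed and 12 were higher, and their median of 0.05 turned negative without IPA 1 and without Trp 1. At an unadjusted edgeR p under 0.05, 2 transporters were higher and 0 lower, beside 2.98% and 3.36% of all genes. Without overlap 3 were higher and 1 lower, beside 5.5% and 5.62%. Cldn5, claudin-5 of endothelial tight junctions, was at 14.1, 19.03 and 16.4 CPM in IPA 1 to 3 and 14.9, 20.1 and 24.7 CPM in Trp 1 to 3 (log2 fold change 0.27, SE 0.18, edgeR adjusted p = 0.8604). Ocln, occludin, was at 7.498, 8.05 and 8.51 CPM in IPA 1 to 3 and 7.76, 6.89 and 5.04 CPM in Trp 1 to 3 (log2 fold change -0.29, SE 0.16, edgeR adjusted p = 0.822), and Tjp1, the scaffold ZO-1, with a log2 fold change, Trp minus IPA, of -0.20 (95% interval -0.43 to 0.02). The libraries of these 3 genes overlapped. F11r, a junctional adhesion molecule, and Cgn, cingulin, were higher in each Trp library than in any IPA library, with log2 fold changes of 0.46 (95% interval 0.12 to 0.81) and 0.60 (0.13 to 1.07). Of 20 junction genes, 0 passed, 10 were higher and 10 lower, and the median of 0.05 turned negative without IPA 1, with the replicate block and among genes of mean FPKM of at least 5. At an unadjusted edgeR p under 0.05, 4 junction genes were higher and 0 lower, beside 2.98% and 3.36% of all genes. Without Trp 1 these counts were 4 and 4 (1807 of all 18518 genes in either direction). Without overlap 3 were higher and 0 lower, beside 5.5% and 5.62% of all genes.

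Cells of the vessel wall and the meninges were read beside the barrier genes. Edn1, the vasoconstrictor endothelin-1, was at 2.93, 2.16 and 2.61 CPM in IPA 1 to 3 and 4.61, 6.197 and 3.97 CPM in Trp 1 to 3, with 1.19 to 1.66 CPM in HFD (log2 fold change 0.94, SE 0.21, edgeR adjusted p = 0.286). All 3 Trp libraries exceeded the IPA and HFD libraries, and its exons overlap those of Gm47118. Endothelial markers were higher in 19 of 26 (median 0.13, 0.08 without Trp 3), with Ly6c1, a surface protein of mouse endothelium, of smallest unadjusted p (log2 fold change 0.29, 95% interval 0.10 to 0.48), and summed to 905 to 978 CPM in IPA and 967 to 1077 in Trp. Mural cell markers, of pericytes and smooth muscle, were higher in 16 of 17 (median 0.27, 0.13 without Trp 3, where the count at an unadjusted p under 0.05 went from 2 to 0), with Pdgfrb, the pericyte growth factor receptor, at 8.96, 8.104 and 9.78 CPM in IPA 1 to 3 and 10.6, 10.7 and 15.3 CPM in Trp 1 to 3 (log2 fold change 0.45, SE 0.15, edgeR adjusted p = 0.634). For all genes, in either direction, that count went from 1151 of 18148 to 927 of 18467 without Trp 3. Meningeal fibroblast markers were higher in 18 of 20 (median 0.47, 0.28 without IPA 3) and summed to 356, 380.0 and 286 CPM in IPA 1 to 3 and 522, 550.0 and 371 CPM in Trp 1 to 3. Mgp, matrix Gla protein, had a log2 fold change, Trp minus IPA, of 0.67 (95% interval 0.33 to 1.01) and Ptgds, prostaglandin D synthase, was at 224, 215 and 155 CPM in IPA 1 to 3 and 333, 379.6 and 244 CPM in Trp 1 to 3 (log2 fold change 0.69, SE 0.20, edgeR adjusted p = 0.642). By edgeR 0 members of these 3 lists passed, while 2 meningeal markers passed with DESeq2 (66 of all 18148 genes) and 1 with the replicate block (6 of 18148). None of them was at 0 in any library, and the part of adherent meninges in the vessel and barrier differences was not tested. Astrocyte markers were higher in 13 of 19 (median 0.11, 0.07 without IPA 3), and Gfap, the filament of reactive astrocytes, was at 126 ± 8.81 CPM in IPA and 144 ± 18.05 CPM in Trp (SD, n = 3) (log2 fold change 0.19, SE 0.10, edgeR adjusted p = 0.796).

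Transcripts of the mitochondrial genome, which encode core subunits of the respiratory chain, were lower in Trp in 13 of 13, with 0 passing, 5 lower at an unadjusted p under 0.05 (beside 3.36% of all genes), and a median of -0.29 (-0.44 to -0.16 over 16 alternatives, the latter without Trp 3). The count of 5 was 1 without IPA 1, 8 without IPA 2, 3 without IPA 3, 11 without Trp 1, 2 without Trp 2 and 1 without Trp 3. For all genes, in either direction, it was 1052 of 18633, 1293 of 18618 and 852 of 18575 without IPA 1 to 3. Without Trp 1 to 3 it was 1807 of 18518, 931 of 18585 and 927 of 18467. mt-Nd4, a subunit of complex I whose exon overlaps that of mt-Nd4l, was at 8318, 6772 and 6784 CPM in IPA 1 to 3 and 6478, 5842 and 4751 CPM in Trp 1 to 3 (log2 fold change -0.36, SE 0.12, edgeR adjusted p = 0.635). Trp 3 was the lowest library for mt-Nd4 and Trp 1 stood just under IPA 2 and IPA 3. It was among the 2 of 13 that were lower without overlap, beside 5.62% of all genes. The 13 genes summed to 108110, 84075 and 88782 CPM in IPA 1 to 3 and 90389, 76835 and 66489 CPM in Trp 1 to 3, with overlap. The nuclear genes of the same chain had a median of 0.05, with 35 of 43 higher and 0 passing, and 22 of 43 higher with a median of 0.0026 without Trp 3. Clock genes, the transcription loop that keeps circadian time, were lower in 19 of 20 with a median of -0.14 (-0.08 without IPA 1) and 0 passing. Bhlhe40, a clock repressor, was at 104, 103 and 87.7 CPM in IPA 1 to 3 and 86.9, 69.02 and 70.01 CPM in Trp 1 to 3 (log2 fold change -0.38, SE 0.10, edgeR adjusted p = 0.427), and Per1 with a log2 fold change, Trp minus IPA, of -0.16 (95% interval -0.34 to 0.03). The time of day of dissection is not in the labels.

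Other programmes are given by the number of members higher in Trp, with 0 members passing by edgeR. Synaptic genes, of vesicle release and receptor scaffolds, had 17 of 42 higher (median -0.02). Of them 1 passed with DESeq2 (66 of all 18148 genes) and 1 without the filter on low counts (14 of 30001). In both it was Homer1, which is counted on the immediate early list as well. Without overlap 10 synaptic genes were lower, beside 5.62% of all genes. Among the 10 were Gria2, an AMPA receptor subunit, at 443, 380.0 and 419 CPM in IPA 1 to 3 and 367, 367 and 317 CPM in Trp 1 to 3 (log2 fold change -0.24, SE 0.09, edgeR adjusted p = 0.659), and Nrxn3, a presynaptic adhesion protein, with a log2 fold change, Trp minus IPA, of -0.21 (95% interval -0.39 to -0.03). Cholesterol and fatty acid synthesis had 11 of 32 higher (median -0.05). Its member Hmgcs1, an early enzyme of the sterol pathway, had a log2 fold change, Trp minus IPA, of -0.21 (95% interval -0.38 to -0.04). Interferon-stimulated genes had 20 of 36 higher (median 0.02), MHC class I and peptide loading genes 13 of 22 higher (median 0.06), and heat shock and unfolded protein genes 14 of 30 higher (median -0.01). Of these 3 lists no member reached an unadjusted p under 0.05. Cytosolic ribosomal protein genes had 33 of 54 higher (median 0.04). Neurotrophin genes had 3 of 11 higher (median -0.02), amyloid and tau genes 12 of 19 higher (median 0.03), and insulin and IGF1 genes 7 of 22 higher (median -0.04). Clu, the secreted chaperone clusterin of the amyloid list, had a log2 fold change, Trp minus IPA, of 0.18 (95% interval 0.00 to 0.36), and Igfbp4, a binding protein of insulin-like growth factors, one of 0.26 (0.04 to 0.48). Oligodendrocyte lineage markers had 6 of 22 higher (median -0.04), interneuron markers 10 of 18 higher (median 0.06), dentate granule cell markers 12 of 22 higher (median 0.03), CA field markers 16 of 26 higher (median 0.05) and adult neurogenesis markers 9 of 27 higher (median -0.06). Midbrain dopamine neuron markers had 6 of 9 higher (median 0.12), and ependymal and ciliary markers 7 of 25 higher (median -0.14). Apart from the amyloid and midbrain lists, the median of each list in this paragraph changed sign under at least 1 alternative. With limma the synaptic, cholesterol, adult neurogenesis, heat shock, neurotrophin, insulin and oligodendrocyte medians were above 0. The median of all genes was then 0.074 to 0.085, and each of these list medians except that of heat shock lay below it. Ribosomal protein genes were higher in 13 of 54 (median -0.03) without IPA 3, and in 46 of 54 (median 0.10) without IPA 1. Ependymal markers were higher in 14 of 25 (median 0.02) without IPA 2, in 16 of 25 (median 0.05) without Trp 3 and in 2 of 25 (median -0.46) without Trp 1. The dentate median was -0.19 without Trp 1, and the midbrain median was 0.03 without Trp 3.

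Transcripts of neighbouring regions also varied in these libraries. Hypothalamic markers were higher in 19 of 22 (median 0.28) and summed to 345, 314 and 303 CPM in IPA 1 to 3 and 297, 445 and 569.8 CPM in Trp 1 to 3, and thalamus and habenula markers in 15 of 20 (median 0.27). The thalamic count was 11 of 20 (median 0.04) without IPA 3 and 10 of 20 (median 0.03) without Trp 1. Choroid plexus markers were lower in 22 of 27 (median -0.19), and their median was 0.22 without Trp 3, 0.15 without IPA 2, -1.24 without Trp 1 and -0.06 without Trp 2. By edgeR 0 members of the 41 lists passed. DESeq2 passed 66 of all 18148 genes, among them members of 9 lists. These were the microglia, immediate early, glucocorticoid, striatal, meningeal, synaptic, cortical, perilipin and blood cell lists. The synaptic list had only Homer1 among them, a gene of the immediate early list too. Without Trp 1, 1 oligodendrocyte gene passed (18 of all 18518 genes).

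**Figure D5:**
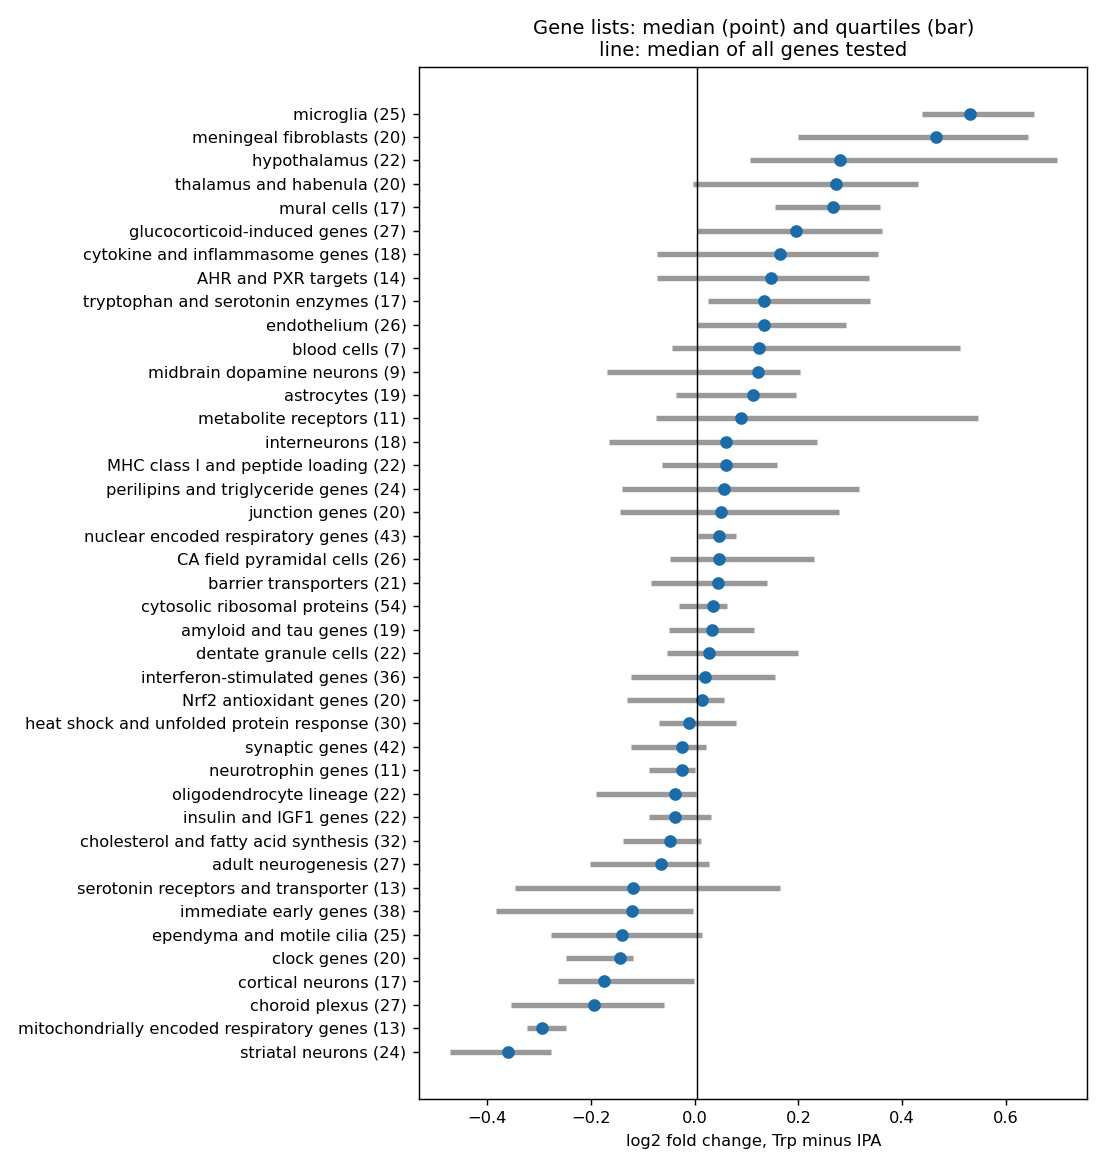
Median (point) and quartiles (bar) of the log2 fold change of Trp minus IPA (x axis) for 41 gene lists (y axis, with the number of genes tested), ordered by median, with a vertical line at the median of all genes tested. Microglia (0.53) and meningeal fibroblasts (0.47) stand at the upper end and striatal neurons (-0.36) and mitochondrially encoded genes (-0.29) at the lower end.

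Among genes at low counts, 3 were near absent in 1 group, with a mean CPM under 10% of that of the other and no overlap. Gm10774 and Gm21985 among them fall outside the naming rule and were chosen after their values were seen. Gper1, a G protein-coupled receptor for oestrogen, had 25 to 36 counts per library in IPA, 0 to 4 in Trp and 81 to 94 in HFD. The groups stepped down from HFD to IPA to Trp without overlap. The ratio of summed counts, IPA to Trp, was 13.5 (95% counting interval 6.58 to 32.2), with an edgeR adjusted p = 0.0808. Gm10774, annotated as a processed pseudogene, has an exon that overlaps Usp50. It had 1 count in each IPA library, 13 to 25 in Trp and 28 to 31 in HFD, a Trp to IPA ratio of 17.5 (5.71 to 87.2, edgeR adjusted p = 0.0765). Gm21985 had 0 counts in the IPA libraries, 72, 112 and 19 in Trp 1 to 3 and 0, 32 and 0 in HFD 1 to 3. Its summed count was at least 58.2-fold higher in Trp against a floor of 3 counts over the group, with an edgeR adjusted p = 0.528. Counting intervals cover counting error only. Zfp973, a zinc finger gene, was at 1.87, 1.94 and 2.16 CPM in IPA 1 to 3 and 6.13, 4.52 and 4.07 CPM in Trp 1 to 3, with 1.82 to 3.19 CPM in HFD (log2 fold change 1.30, SE 0.20, edgeR adjusted p = 0.0765). Its exons overlap those of Gm14305 on the same strand, so how reads were divided between the genes is uncertain.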

How the data were processed

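Poly(A) RNA of hippocampal tissue was sequenced in 9 libraries, and 6 entered the fit. The raw read counts per gene are as the authors deposited them, in a single table that also holds the FPKM values the authors deposited. Per the submitters' processing notes, the mouse build was mm10 and StringTie 2.1.3b was among the tools. Aligner, counter, annotation release and strand setting were not given in the sources used here, and the library protocol in the labels describes no strand marking, so genes with overlapping exons cannot be told apart. Columns were assigned to libraries through the description field of the labels. Counts were filtered with filterByExpr (minimum count 10), scaled by TMM and tested with edgeR 4.0.16 (quasi-likelihood, Benjamini-Hochberg adjustment over 18148 genes, threshold 0.05) in R 4.3.3. DESeq2 1.42.0 and limma 3.58.1 were alternatives. The fit was checked on simulated counts with 200 changed genes, where 15 of 145 calls were false. P-values measure the spread between these samples, 3 a group. Libraries of a group differed by more than sampling noise, so none was counted as a repeat.

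Genes were named by a rule: up to 12 per direction among genes passing, with no overlap and a mean FPKM of 1 or more, filled to 8 by smallest unadjusted p, then up to 4 of smallest p per list, and a fixed set of genes of the study's question. The comparison and its 41 gene lists were chosen with earlier results of these data known. Coordinates of promoters are from RefSeq GRCm38.p6. Figures were drawn with matplotlib 3.10.9. Results for 3 genes that the rule names are not reported here.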

Additional observations from a re-analysis of the deposited data

How the results depend on the processing

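The number of genes passing, 0 in the edgeR fit, was 66 with DESeq2, 14 without the filter on low counts, 6 among genes of mean FPKM of at least 5, 1 with upper quartile scaling, 1 with limma at each pseudocount and 10 at an adjusted p under 0.1. It ranged from 0 to 18 with 1 library left out, and was 0 with RLE scaling and in the fit of all 9 libraries. Equal replicate numbers did not pair the libraries (correlations of deviations -0.05, 0.02 and 0.02), and 6 genes passed with the replicate number as a block. Of 90 genes named and tested, 84 kept their sign under every alternative. The log2 fold changes of 6 genes turned. Ahr was 0.039, 0.051 and 0.030 with limma and -0.12 (without IPA 2) to 0.032 (without IPA 3) with 1 library left out. Bdnf was -0.21 (without Trp 3) to 0.030 (without Trp 2) with 1 library left out. Nqo1 was 0.0084 with upper quartile scaling, 0.044, 0.048 and 0.041 with limma and -0.15 (without Trp 1) to 0.16 (without Trp 3) with 1 library left out. Sall1 was -0.057 (without Trp 3) to 0.078 (without Trp 1) with 1 library left out. Tdo2 was 0.0029 with upper quartile scaling and -0.70 (without Trp 1) to 0.32 (without Trp 3) with 1 library left out. Ttr was -1.24 (without Trp 1) to 0.41 (without Trp 3) with 1 library left out. Of 41 list medians, 20 kept their sign under every alternative. Among the medians that turned, the serotonin receptor list was 0.042, 0.051 and 0.035 with limma and -0.12 (without Trp 1) to 0.0021 (without IPA 2) with 1 library left out. The barrier transporter list was -0.029 (without IPA 1) to 0.085 (without IPA 2) with 1 library left out. The cholesterol and fatty acid synthesis list was 0.038, 0.039 and 0.036 with limma. The synaptic list was 0.00046 with upper quartile scaling and 0.067, 0.069 and 0.063 with limma. The adult neurogenesis list was 0.0068 among genes of mean FPKM of at least 5 and 0.035, 0.037 and 0.033 with limma. Limma was fitted to log2 FPKM without TMM scaling, and the median of all genes was then between 0.07 and 0.09. With limma the serotonin receptor, cholesterol, synaptic and adult neurogenesis medians lay below that of all genes. The cause of these shifts was not tested. The list medians under alternatives were added after seeing the data. Depth limits genes with few counts, such as Ffar2, Ffar3 and Cyp1a1, which were not tested.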
